A study of Mus musculus with 19 samples.

Results

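Epcam and 8 genes of the tight junction were followed in RNA-seq counts from 19 mouse tumours. The genes were Epcam, Cldn1, Cldn3, Cldn4, Cldn7, Cldn12, Cldn23, Ocln and Tjp1, which are 9 of the 46983 genes in the count table. They were picked on measured values of these same tumours, because Epcam and Cldn4 were lower and Cldn7 was higher in tumours with Ldha knocked down. The differences between knockdown and control tumours are therefore given for the 9 genes as a description, with no test.

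All tumours grew from implants of 4T1, a line of mouse mammary carcinoma cells, placed into syngeneic BALB/cAnN mice with no earlier treatment. The knockdown tumours came from a line labelled 4T1-KD, in which lactate dehydrogenase A (Ldha, the enzyme that turns pyruvate into lactate) was knocked down, and the control tumours from a line labelled 4T1-Sc. Mice received 3 doses of an antibody 3 days apart, starting 3 days after injection: either anti-CTLA-4, which blocks an inhibitory receptor of T cells, or IgG as the control antibody. LDHA-KD tumours given anti-CTLA-4 and LDHA-KD tumours given IgG had 5 samples each, control tumours given anti-CTLA-4 had 5, and control tumours given IgG had 4 (replicates 1, 3, 4 and 5). The labels do not say whether each line was a clone or a pool of cells, so the knockdown and other differences between the lines cannot be told apart. No label says that the replicates came from separate mice, so a p-value here measures only how far these samples spread.

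EPCAM is a surface glycoprotein of epithelial cells and of many carcinomas, where it is used as a marker. In mouse intestine and skin it binds and stabilises claudins, with claudin-7 as its best known partner. Claudins are membrane proteins whose strands seal the space between neighbouring epithelial cells and set which ions pass. Occludin (Ocln) sits in the same strands, and ZO-1 (Tjp1) ties both to the actin cytoskeleton. Matriptase (St14) cleaves EPCAM at the cell surface and is held in check by the inhibitors encoded by Spint1 and Spint2.

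In units of 1000000, libraries held 31.8 to 43.3 gene counts. Levels are counts per 1000000 (CPM) after TMM scaling of the library sizes. Ldha had 566, 485, 584, 525 and 545 CPM in LDHA-KD tumours given anti-CTLA-4, against 2244, 1524, 1955, 1910 and 1935 CPM in control tumours given anti-CTLA-4. It had 478, 470, 452, 506 and 519 CPM in LDHA-KD tumours given IgG, against 1926, 1624, 1567 and 1283 CPM in control tumours given IgG. Every library thus matched its label as knockdown or control, and Ldha does not check the antibody part of the label. On the second principal component (17.0% of the variance), replicates 3 and 5 of both anti-CTLA-4 groups stood apart, at -48.6 to -31.6 against -13.3 or higher in the other 15 libraries. These 4 libraries enter every anti-CTLA-4 value below, and values without them are given for some results. The tumours are bulk tissue, so fewer cells of a type and less RNA per cell cannot be told apart.

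The start sites of Epcam, Cldn4 and Cldn7 are shown because the choice of genes turned on these 3. RefSeq (GRCm38.p6, the same assembly as mm10) gave windows from 250 bases before to 50 bases after the start for 8 of the 9 genes. Epcam lies on chromosome 17 (plus strand), Cldn4 on chromosome 5 (minus strand) and Cldn7 on chromosome 11 (plus strand), where RefSeq has 2 start sites. The windows are chr17:87635729-87636028 for Epcam, chr5:134946885-134947184 for Cldn4, and chr11:69964529-69964828 and chr11:69965171-69965470 for Cldn7. Each is written 5′ to 3′ on the strand of its gene, and capitals mark CACCTG, the E-box bound by SNAI and ZEB repressors, and GGGCGG, the GC box, on either strand.
Epcam: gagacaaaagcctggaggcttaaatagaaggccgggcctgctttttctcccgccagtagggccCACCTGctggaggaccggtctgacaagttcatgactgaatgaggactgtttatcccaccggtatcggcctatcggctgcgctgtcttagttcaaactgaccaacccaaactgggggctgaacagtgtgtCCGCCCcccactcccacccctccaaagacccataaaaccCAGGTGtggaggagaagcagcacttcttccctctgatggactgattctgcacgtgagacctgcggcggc
Cldn4: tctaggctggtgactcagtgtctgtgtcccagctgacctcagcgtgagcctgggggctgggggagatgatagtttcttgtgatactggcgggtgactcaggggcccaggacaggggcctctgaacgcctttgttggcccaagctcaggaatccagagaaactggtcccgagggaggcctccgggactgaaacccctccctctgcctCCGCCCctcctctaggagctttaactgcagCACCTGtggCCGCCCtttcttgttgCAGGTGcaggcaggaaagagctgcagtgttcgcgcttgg
Cldn7, upstream start: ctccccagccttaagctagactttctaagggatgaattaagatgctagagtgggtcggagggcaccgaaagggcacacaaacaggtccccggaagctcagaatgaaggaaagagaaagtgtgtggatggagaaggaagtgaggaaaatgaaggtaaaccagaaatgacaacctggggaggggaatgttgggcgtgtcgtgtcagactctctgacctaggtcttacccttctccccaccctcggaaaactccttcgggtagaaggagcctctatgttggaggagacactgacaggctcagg
Cldn7, downstream start: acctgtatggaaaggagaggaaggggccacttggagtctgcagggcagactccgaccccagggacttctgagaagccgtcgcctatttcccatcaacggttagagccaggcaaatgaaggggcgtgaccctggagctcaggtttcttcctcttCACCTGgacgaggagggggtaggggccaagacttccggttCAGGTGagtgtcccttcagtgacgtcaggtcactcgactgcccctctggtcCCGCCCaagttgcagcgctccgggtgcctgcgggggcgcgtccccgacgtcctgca

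The Epcam window held the E-box letters at 2 places, 187 and 19 bases before the start site, and the Cldn4 window also at 2 places, 14 bases before and 11 bases after it. The window of the upstream Cldn7 start held none, and that of the downstream start held 2, at 97 and 57 bases before it. Of 32851 RefSeq windows of the same length, 20.2% held CACCTG or its reverse complement and 35.7% held the GC box. The Grainyhead letters AACCGGTT (0.146% of windows) and the TATA box TATAAA (13.6%) were in none of these 4 windows, nor in those of the other members. No motif overlapped another, and the letters describe the sequence and not binding.

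Epcam and Cldn4 were the members with the lowest levels in LDHA-KD tumours relative to control tumours, and Cldn7 was the member with the clearest higher level. Epcam had 102, 147, 77.1, 81.2 and 68.7 CPM in LDHA-KD tumours given anti-CTLA-4, against 556, 453, 415, 537 and 426 CPM in control tumours given anti-CTLA-4. It had 106, 117, 97.1, 137 and 102 CPM in LDHA-KD tumours given IgG, against 637, 481, 495 and 434 CPM in control tumours given IgG. The highest knockdown tumour, at 147 CPM, lay far under the lowest control tumour, at 415 CPM. The log2 fold change of LDHA-KD over control was -2.33 (SE 0.18) under anti-CTLA-4 and -2.19 (SE 0.18) under IgG, or 5.02-fold and 4.58-fold lower.

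Cldn4 encodes a claudin of simple epithelia. It had 28.9, 39.2, 26.1, 21.4 and 26.1 CPM in LDHA-KD tumours given anti-CTLA-4, against 290, 193, 237, 186 and 181 CPM in control tumours given anti-CTLA-4. Under IgG it had 33.7, 30.8, 29.3, 38.3 and 30.2 CPM in LDHA-KD tumours, against 260, 257, 204 and 185 CPM in control tumours. No knockdown tumour came near the control range. The difference was 7.67-fold under anti-CTLA-4 (log2 fold change -2.94, SE 0.16) and 6.97-fold under IgG (-2.80, SE 0.17), the largest among the 9 genes in either comparison.

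Cldn7, the EPCAM-binding claudin, had 24.9, 23.3, 22.7, 22.4 and 24.5 CPM in LDHA-KD tumours given anti-CTLA-4, against 9.38, 9.65, 7.73, 7.67 and 7.75 CPM in control tumours given anti-CTLA-4. It had 22.2, 23.5, 28.6, 25.2 and 21.6 CPM in LDHA-KD tumours given IgG, against 9.10, 8.12, 10.3 and 9.75 CPM in control tumours given IgG. All 10 knockdown tumours were above all 9 control tumours, opposite in direction to Epcam. This gave a log2 fold change of 1.48 (SE 0.09) under anti-CTLA-4 and 1.38 (SE 0.10) under IgG, or 2.79-fold and 2.60-fold higher.

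**Figure D1:**
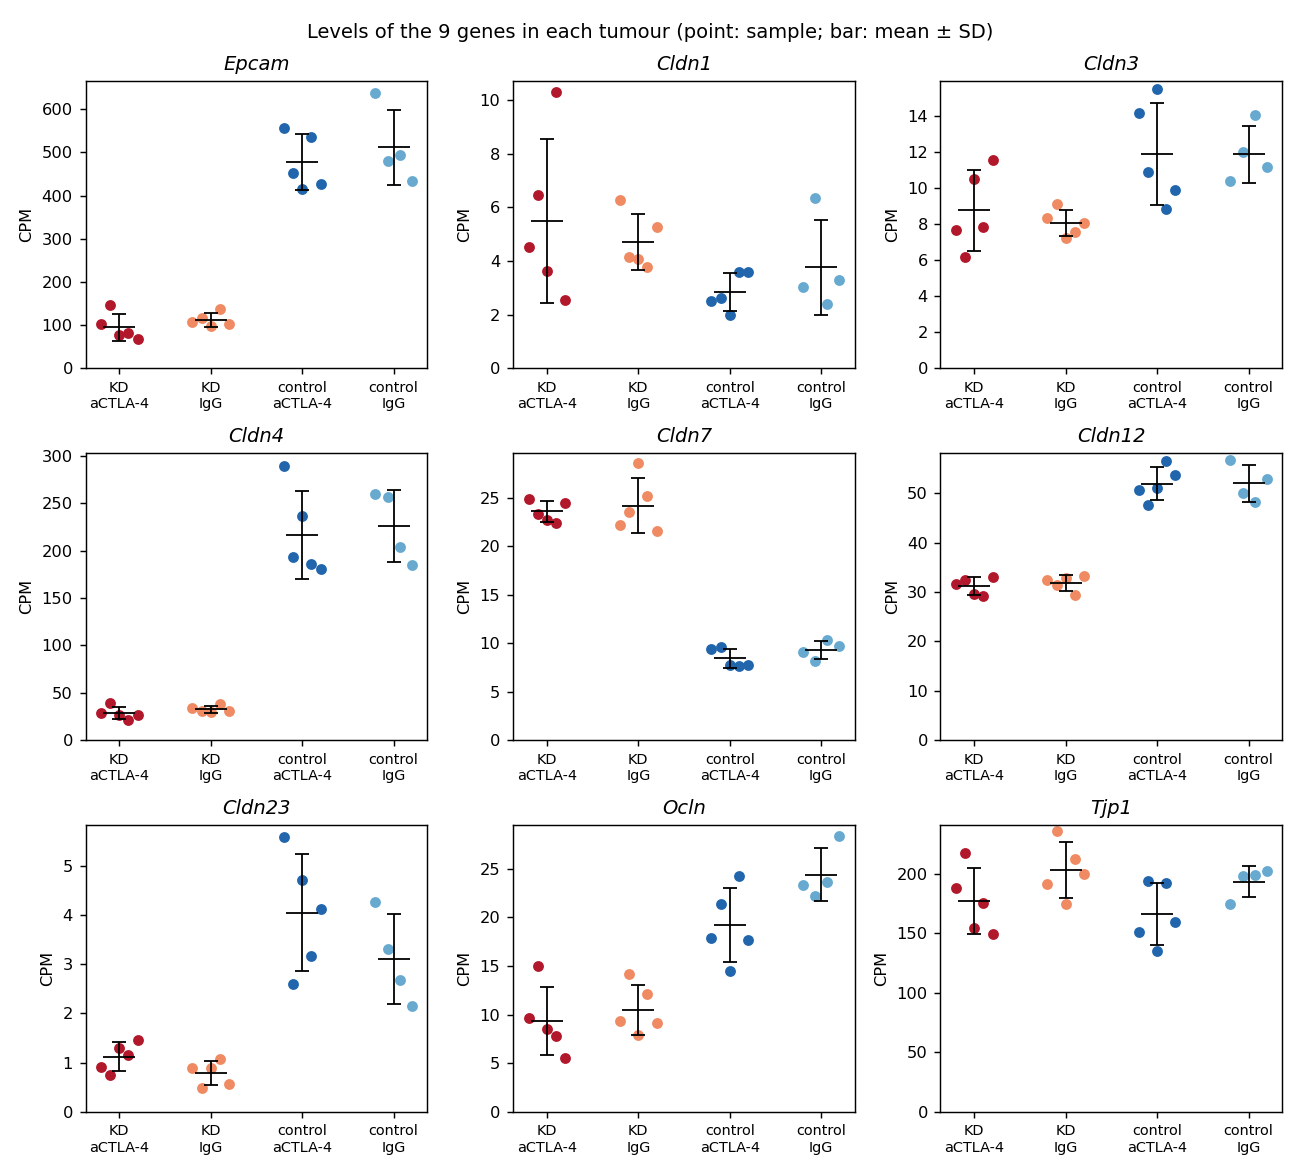
CPM of each of the 9 genes (y axis, linear, from 0, its own scale per panel) in the 4 groups (x axis; KD stands for LDHA-KD and aCTLA-4 for anti-CTLA-4), with a point per tumour and the group mean ± SD as bars. Epcam and Cldn4 sit far lower in the LDHA-KD groups (at most 147 and 39.2 CPM), Cldn7 sits higher (at least 21.6 CPM), and the Tjp1 groups lie over each other.

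Among the other claudins on the list, Cldn12 and Cldn23 were lower in every LDHA-KD tumour than in every control tumour. Cldn12, a claudin linked to calcium permeability in mouse intestine, had 31.6, 32.5, 29.5, 29.2 and 33.1 CPM in LDHA-KD tumours given anti-CTLA-4, against 50.7, 47.7, 51.0, 56.5 and 53.7 CPM in control tumours given anti-CTLA-4. Under IgG it had 32.4, 31.3, 32.9, 29.4 and 33.3 CPM in LDHA-KD tumours, against 56.8, 50.1, 48.3 and 52.8 CPM in control tumours. Its spread within groups was narrow, and the difference was 1.66-fold under anti-CTLA-4 (log2 fold change -0.74, SE 0.06) and 1.63-fold under IgG (-0.71, SE 0.07). Divided by the counts of Krt8 and Krt18, keratins of simple epithelia, the log2 fold change of Cldn12 was -0.24 under anti-CTLA-4 and -0.56 under IgG, or 1.18-fold and 1.48-fold lower.

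Cldn23 was the member with the fewest counts, 19 to 55 per library in LDHA-KD tumours and 75 to 190 in control tumours. It had 0.907, 0.756, 1.30, 1.15 and 1.46 CPM in LDHA-KD tumours given anti-CTLA-4, against 5.58, 2.60, 4.70, 3.16 and 4.13 CPM in control tumours given anti-CTLA-4. It had 0.894, 0.487, 0.887, 1.08 and 0.572 CPM in LDHA-KD tumours given IgG, against 4.26, 3.31, 2.68 and 2.14 CPM in control tumours given IgG. The groups did not overlap. Its log2 fold change was -1.85 (SE 0.26) under anti-CTLA-4 and -1.99 (SE 0.28) under IgG, with a wide error at these counts.

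Cldn3, a barrier-forming claudin, differed less. It had 7.67, 6.18, 10.5, 7.84 and 11.6 CPM in LDHA-KD tumours given anti-CTLA-4, against 14.2, 10.9, 15.5, 8.85 and 9.92 CPM in control tumours given anti-CTLA-4, and these groups overlapped. It had 8.37, 9.13, 7.25, 7.59 and 8.06 CPM in LDHA-KD tumours given IgG, against 10.4, 12.0, 14.1 and 11.2 CPM in control tumours given IgG, which did not overlap. The log2 fold change was -0.44 (SE 0.17) under anti-CTLA-4 and -0.56 (SE 0.18) under IgG. When its counts were divided by those of Krt8 and Krt18, the anti-CTLA-4 value was 0.05 in place of -0.44, and the IgG value was -0.41. Without the 4 libraries that stand apart, and without that scaling, the anti-CTLA-4 value was -0.64. Both changes together were not computed. Exons of Cldn3 also overlap Wbscr25 on the opposite strand, and since the strand setting of the counting is not given in the sources used here, its counts could include reads from that gene.

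Cldn1, a claudin needed for the skin barrier of mice, had 4.53, 6.48, 3.61, 10.3 and 2.53 CPM in LDHA-KD tumours given anti-CTLA-4, against 2.50, 2.60, 2.00, 3.57 and 3.59 CPM in control tumours given anti-CTLA-4. It had 6.29, 4.15, 4.07, 3.77 and 5.28 CPM in LDHA-KD tumours given IgG, against 3.02, 6.35, 2.41 and 3.28 CPM in control tumours given IgG. The groups overlapped under both antibodies, and the 10.3 CPM of replicate 4 was the highest of all tumours. That library also had the highest summed level of skin keratinocyte markers, 28.5 CPM. In LDHA-KD tumours given IgG, replicate 1 had the highest Cldn1 and the highest such sum, 15.4 CPM. In control tumours given IgG this was replicate 3, at 18.4 CPM. In control tumours given anti-CTLA-4, replicate 5 had the highest Cldn1 with a sum of 7.93 CPM, against 10.6 CPM in replicate 4. The part of skin cells in Cldn1 was not tested. The log2 fold change was 0.95 (SE 0.32) under anti-CTLA-4 and 0.33 (SE 0.34) under IgG. Leaving out each replicate in turn moved the first value between 0.59 and 1.13 and the second between 0.16 and 0.71. Without the 4 libraries that stand apart, the value under anti-CTLA-4 was 1.30.

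Ocln, the strand protein occludin, was lower in LDHA-KD tumours, and the groups of the scaffold gene Tjp1 overlapped. Ocln had 9.63, 15.0, 8.55, 7.84 and 5.56 CPM in LDHA-KD tumours given anti-CTLA-4, against 17.9, 21.4, 14.5, 24.3 and 17.7 CPM in control tumours given anti-CTLA-4, with an overlap of a single pair of libraries. It had 9.29, 14.2, 7.86, 12.1 and 9.15 CPM in LDHA-KD tumours given IgG, against 23.3, 22.2, 23.6 and 28.4 CPM in control tumours given IgG, with no overlap. The log2 fold change was -1.04 (SE 0.21) under anti-CTLA-4 and -1.21 (SE 0.22) under IgG, or 2.06-fold and 2.31-fold lower. Scaled to Krt8 and Krt18 it was -0.60 and -1.10.

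Tjp1 had 188, 217, 154, 175 and 149 CPM in LDHA-KD tumours given anti-CTLA-4, against 151, 194, 135, 192 and 159 CPM in control tumours given anti-CTLA-4. It had 191, 236, 174, 212 and 200 CPM in LDHA-KD tumours given IgG, against 174, 198, 199 and 202 CPM in control tumours given IgG. The groups overlapped throughout. The log2 fold change was 0.09 (SE 0.11) under anti-CTLA-4 and 0.07 (SE 0.12) under IgG. Scaled to Krt8 and Krt18, Tjp1 had a log2 fold change of 0.58 under anti-CTLA-4 and 0.20 under IgG.

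All 9 genes passed the filter on low counts. Of the 16763 genes tested in edgeR, 40.0% were called between LDHA-KD and control tumours under anti-CTLA-4 at an adjusted p under 0.05, and 34.3% under IgG. By the same rule 8 and 7 of the 9 genes would be counted, a number that follows from how they were picked. The groups of 5 members did not overlap under anti-CTLA-4 and those of 7 did not under IgG, beside 23.2% and 30.4% of all genes tested, and these counts too follow from the choice. The median log2 fold change of the 9 was -0.74 under anti-CTLA-4 and -0.71 under IgG, beside 0.0059 and -0.0016 for all genes tested.

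**Figure D2:**
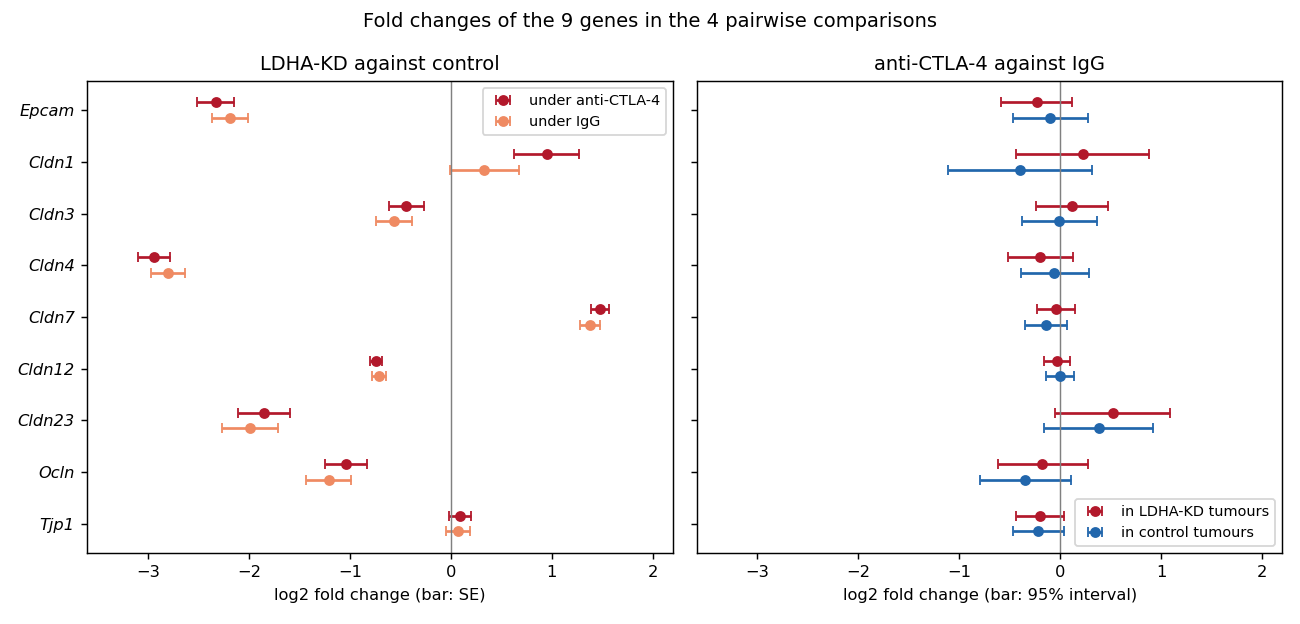
Log2 fold change (x axis) of each of the 9 genes (y axis). The left panel gives LDHA-KD against control tumours with bars of 1 SE, and the right panel anti-CTLA-4 against IgG with 95% intervals. Values on the left run from -2.94 for Cldn4 to 1.48 for Cldn7, and all intervals on the right cross 0.

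Blockade of CTLA-4 was not used to pick the genes, and it was tested with edgeR's quasi-likelihood test, adjusted over all genes. In LDHA-KD tumours, 0 of the 9 genes passed, with log2 fold changes of anti-CTLA-4 over IgG from -0.23 for Epcam to 0.52 for Cldn23 and adjusted p from 0.466 to 0.881. In control tumours 0 of 9 passed, with values from -0.40 for Cldn1 to 0.38 for Cldn23 and adjusted p from 0.640 to 0.998. Across all genes 0% were called in either comparison, with 1987 genes in LDHA-KD tumours and 1346 in control tumours at an unadjusted p under 0.05 and none of the 9 among them. DESeq2 called 50 and 11 genes and limma voom 0 and 0, and no tool called a member.

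The intervals show how large a response could have been missed. For Cldn12, the most even member, the 95% interval ran from -0.16 to 0.10 in LDHA-KD tumours and from -0.14 to 0.14 in control tumours. For Cldn7 it ran from -0.23 to 0.15 in LDHA-KD tumours and from -0.35 to 0.07 in control tumours. For Epcam it was -0.59 to 0.12 in LDHA-KD tumours and -0.47 to 0.27 in control tumours, and for Cldn4 -0.52 to 0.13 in LDHA-KD tumours and -0.39 to 0.28 in control tumours. Cldn1 and Cldn23 were the least certain, with upper bounds of 0.88 and 1.09 in LDHA-KD tumours.

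Cldn23 had the smallest unadjusted p in LDHA-KD tumours, 0.0736 by edgeR's quasi-likelihood test, with an adjusted p of 0.466 and 84.0% of library pairs higher under anti-CTLA-4. In control tumours its log2 fold change was 0.38 (SE 0.26). Without the 4 libraries that stand apart, the Cldn23 values were 0.27 in LDHA-KD tumours and 0.28 in control tumours. Without them, Epcam differed by -0.02 in LDHA-KD tumours and 0.01 in control tumours.

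The interaction asks whether blockade acted differently in LDHA-KD than in control tumours. Its log2 values ran from -0.14 for Cldn4 to 0.62 for Cldn1 (95% interval of Cldn1 -0.35 to 1.60), and 0 of the 9 genes passed in edgeR (adjusted p = 1 for each). Again 0% of all genes were called, with 415 at an unadjusted p under 0.05, none of them a member, and 0 genes by DESeq2 and by limma voom. For Epcam, Cldn4 and Cldn7 the intervals were -0.65 to 0.38, -0.61 to 0.33 and -0.18 to 0.39. Without the 4 libraries that stand apart, the interaction of Cldn1 was 0.97 and did not pass.

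Levels of different genes can be compared once divided by transcript length, here as CPM per kilobase (kb) of exons. Epcam was the highest member in every group. In LDHA-KD tumours given IgG, Epcam averaged 50.9 ± 7.25 CPM per kb, Tjp1 25.9 ± 2.98, Cldn4 17.9 ± 2.02, Cldn7 12.4 ± 1.45, Cldn12 7.53 ± 0.376, Cldn3 6.42 ± 0.577, Ocln 2.49 ± 0.609, Cldn1 0.973 ± 0.217 and Cldn23 0.424 ± 0.134 (SD, n = 5). LDHA-KD tumours given anti-CTLA-4 had the same order, with Epcam at 43.4 ± 14.3 CPM per kb, Cldn4 at 15.6 ± 3.64 and Cldn7 at 12.1 ± 0.567. Cldn12 and Cldn3 overlapped in both LDHA-KD groups, and Tjp1 with Cldn4, Cldn4 with Cldn7, Ocln with Cldn1 and Cldn1 with Cldn23 under anti-CTLA-4, so these neighbours are not separated. In control tumours given IgG, Epcam averaged 233 ± 39.8 CPM per kb, Cldn4 125 ± 20.9, Tjp1 24.7 ± 1.67, Cldn12 12.3 ± 0.874, Cldn3 9.46 ± 1.26, Ocln 5.77 ± 0.653, Cldn7 4.78 ± 0.477, Cldn23 1.68 ± 0.493 and Cldn1 0.778 ± 0.365 (SD, n = 4). Control tumours given anti-CTLA-4 had the same order as those given IgG. Ocln and Cldn7 overlapped in both control groups, Cldn12 and Cldn3 in those given anti-CTLA-4, and Cldn23 and Cldn1 in those given IgG. Cldn7 thus ranked 4 of 9 in both LDHA-KD groups and 7 of 9 in both control groups.

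The make-up of the claudin transcripts differed accordingly. The table holds 25 claudin symbols, of which 6 are members and 19 are not. Summed over all 25, claudins reached 51.8 ± 4.14 CPM per kb in LDHA-KD tumours given anti-CTLA-4 and 161 ± 27.3 in control tumours given anti-CTLA-4 (SD, n = 5 each). With IgG the sums were 54.9 ± 2.88 in LDHA-KD tumours (n = 5) and 167 ± 18.5 in control tumours (n = 4). Cldn4 made up 29.8% ± 4.59 of the sum in LDHA-KD tumours given anti-CTLA-4 and 74.1% ± 3.02 in control tumours given anti-CTLA-4, and 32.5% ± 2.12 and 74.1% ± 4.42 in LDHA-KD and control tumours given IgG. Cldn7 made up 23.4% ± 1.61 in LDHA-KD tumours given anti-CTLA-4 and 2.74% ± 0.446 in control tumours given anti-CTLA-4, and 22.7% ± 3.02 and 2.90% ± 0.572 in LDHA-KD and control tumours given IgG. The share of Cldn3 was 11.7% ± 1.14 in LDHA-KD tumours and 5.73% ± 1.16 in control tumours given IgG, although its own level was lower in LDHA-KD tumours. These shares follow from the members' values and are a description.

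**Figure D3:**
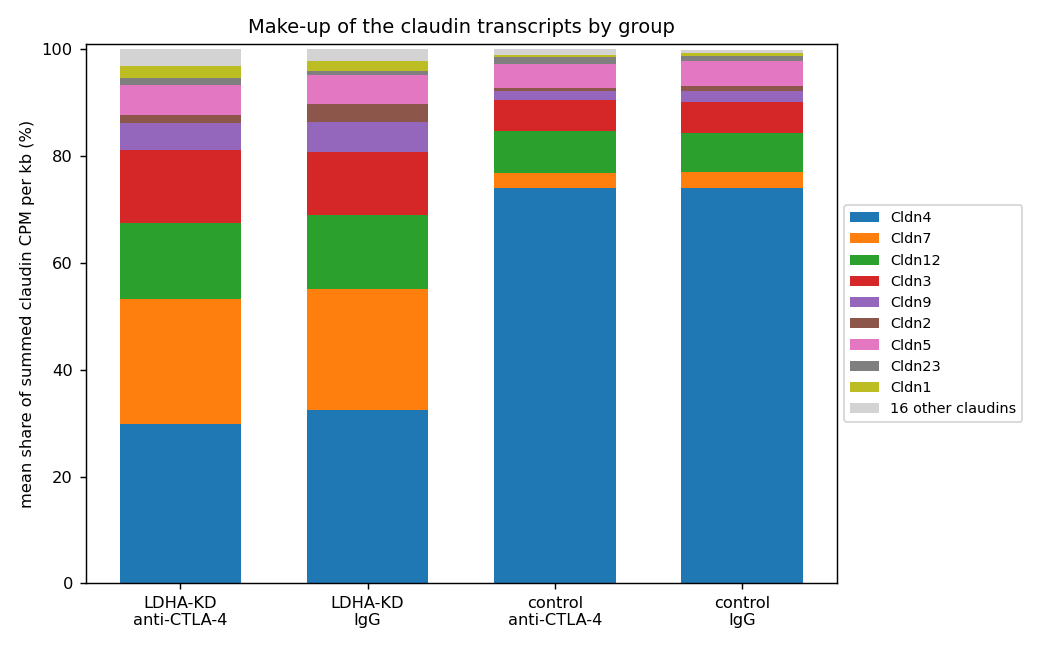
Mean share of each claudin in the summed claudin CPM per kb (y axis, %), by group (x axis), with the other 16 claudins drawn together in grey. Cldn4 fills 74.1% of the bar in both control groups, and Cldn4 and Cldn7 are closer in size in the LDHA-KD groups.

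Cldn7 amounted to 0.300 ± 0.0821 of Epcam per length in LDHA-KD tumours given anti-CTLA-4 and 0.0201 ± 0.00288 in control tumours given anti-CTLA-4 (SD, n = 5 each). With IgG the ratio was 0.248 ± 0.0488 in LDHA-KD tumours (n = 5) and 0.0210 ± 0.00417 in control tumours (n = 4). The lowest ratio in LDHA-KD tumours, 0.178, was above the highest in control tumours, 0.0253. Cldn4 amounted to 0.370 ± 0.0617 of Epcam in LDHA-KD tumours given anti-CTLA-4 and 0.553 ± 0.107 in control tumours given anti-CTLA-4, with overlapping ranges. With IgG this ratio was 0.353 ± 0.0259 in LDHA-KD tumours and 0.538 ± 0.0717 in control tumours, and the ranges (0.318 to 0.386 and 0.494 to 0.644) did not overlap.

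**Figure D4:**
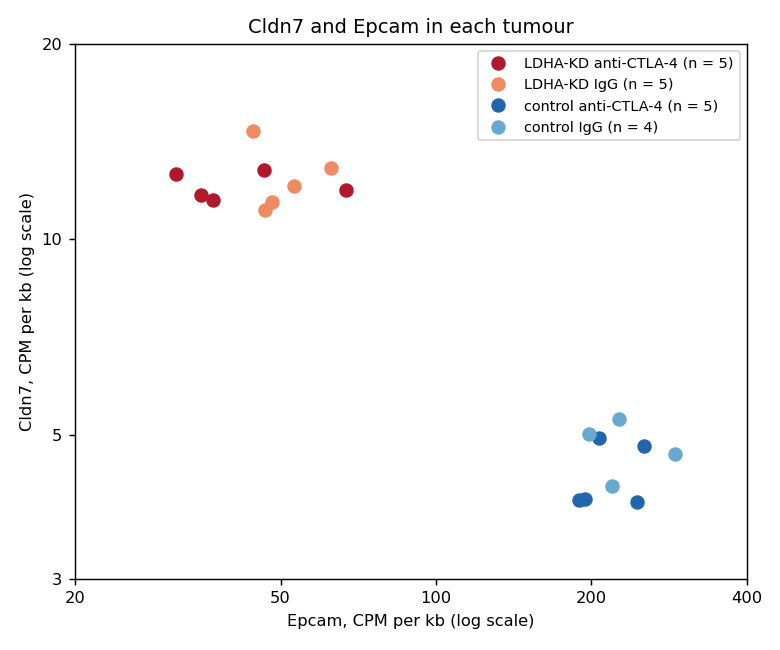
Cldn7 (y axis) against Epcam (x axis), both in CPM per kb on log scales, with a point per tumour coloured by group. The 10 LDHA-KD tumours lie at the upper left and the 9 control tumours at the lower right, and no trend is read within a group.

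Markers of several cell types also differed between LDHA-KD and control tumours, not all in the same direction. The summed level of 8 epithelial carcinoma cell markers was 1871 to 3095 CPM in LDHA-KD tumours given anti-CTLA-4 and 3511 to 4218 in control tumours given anti-CTLA-4, and 2882 to 3122 and 3602 to 4510 in LDHA-KD and control tumours given IgG. Within that list Krt8 and Krt18, the most abundant genes, had log2 fold changes of -0.14 (adjusted p = 0.439, edgeR) and -0.15 (adjusted p = 0.488) under IgG, and fell by 0.40 (adjusted p = 0.0136) and 0.49 (adjusted p = 0.0140) on the log2 scale under anti-CTLA-4. Without the 4 libraries that stand apart Krt8 (-0.24, adjusted p = 0.112) and Krt18 (-0.25, adjusted p = 0.202) did not pass under anti-CTLA-4. Against Krt8 and Krt18 summed, Epcam had a CPM ratio of 0.0476 ± 0.00849 in LDHA-KD and 0.174 ± 0.0193 in control tumours given anti-CTLA-4, and 0.0441 ± 0.00703 and 0.181 ± 0.0118 in LDHA-KD and control tumours given IgG. Scaled to these keratins, the log2 fold changes under IgG were -2.05 for Epcam, -2.65 for Cldn4 and 1.52 for Cldn7, and under anti-CTLA-4 they were -1.88, -2.45 and 1.98. The same scaling gave Cldn23 -1.83 under IgG and -1.34 under anti-CTLA-4, and Cldn1 0.54 and 1.30.

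The summed level of 10 leukocyte markers was 849 to 1273 CPM in LDHA-KD and 559 to 803 in control tumours given anti-CTLA-4, and 903 to 1018 and 425 to 592 in LDHA-KD and control tumours given IgG. Under anti-CTLA-4 9 of the 10 rose and under IgG 7 of 10, with 0 lower, and 7 rose under anti-CTLA-4 without the 4 libraries that stand apart. Of all genes tested, 20.2% rose and 19.8% fell under anti-CTLA-4, and 16.8% rose and 17.5% fell under IgG. The 8 endothelial markers summed to 267 to 389 CPM in LDHA-KD and 384 to 422 in control tumours given anti-CTLA-4, and to 224 to 287 and 357 to 468 in LDHA-KD and control tumours given IgG. The 6 fibroblast markers summed to 1576 to 4098 CPM in LDHA-KD and 1818 to 2955 in control tumours given anti-CTLA-4, and to 1580 to 1901 and 1870 to 3059 in LDHA-KD and control tumours given IgG. These fibroblast genes did not move alike: 3 rose and 0 fell under anti-CTLA-4, and 1 rose and 3 fell under IgG. Without the 4 libraries that stand apart, 3 rose and 1 fell under anti-CTLA-4. Langerhans cells are skin cells that carry EPCAM in mice. A list of Cd207, their marker, and Cd209a, which is not specific to them, summed to at most 7.81 CPM. Skin keratinocyte markers summed to at most 28.5 CPM. Cd209a made up most of the first sum, so that sum is not a measure of Langerhans cells. Cd207 averaged at most 0.239 CPM in any group. Mammary gland secretory markers summed to at most 108 CPM. No marker was at 0 in every library of any group, and the part of these cells in the members' values was not tested.

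Within LDHA-KD tumours given anti-CTLA-4, the extremes of several members fell in the same libraries. Replicate 2 had the highest Epcam, Cldn4, Ocln and Tjp1 of the group and an epithelial sum of 3025 CPM. Replicate 5, a library that stands apart, had the lowest Epcam, Ocln and Tjp1 and the highest Cldn3 and Cldn23, with an epithelial sum of 2011 CPM. Replicate 3, which also stands apart, had 77.1 CPM of Epcam with an epithelial sum of 1871 CPM and the highest fibroblast sum of all libraries, 4098 CPM. Cldn7 varied little over the same 5 tumours (22.4 to 24.9 CPM).

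The remaining claudins and the other junction genes are not members, and their differences between LDHA-KD and control tumours were tested in the same fit. Among the 19 claudins outside the members, 8 passed the filter. Of these 8, 1 fell and 0 rose, both under anti-CTLA-4 (against 19.8% lower and 20.2% higher of all genes) and under IgG (17.5% lower and 16.8% higher). The gene was Cldn5, the claudin of endothelial cells, with 4.15 ± 1.06 CPM in LDHA-KD and 9.94 ± 0.431 in control tumours given anti-CTLA-4 (log2 fold change -1.26, SE 0.16, edgeR adjusted p = 7.39e-06). Cldn5 is also on the endothelial list, of which 5 of 8 genes fell under anti-CTLA-4 and 7 of 8 under IgG. Cldn9 (-0.10 under anti-CTLA-4 and -0.12 under IgG), Cldn2 (0.33 and 0.43), Cldn15 (0.08 and 0.39), Cldn18 (-0.52 and -0.30), Cldn8 (-0.25 and -0.72), Cldn10 (0.15 and 1.14) and Cldn6 (-0.54 and -1.56) did not pass. Under IgG, Cldn6 averaged only 0.105 CPM in LDHA-KD and 0.317 CPM in control tumours. Its edgeR adjusted p there was 0.0559, and 0.00254 in the fit without the 4 libraries that stand apart.

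Of 16 other membrane and scaffold genes of the tight junction, 8 fell and 2 rose under either antibody, with a median log2 fold change of -0.32 under anti-CTLA-4 and -0.25 under IgG. Over all genes, 19.8% fell and 20.2% rose under anti-CTLA-4, and 17.5% fell and 16.8% rose under IgG. F11r, the adhesion molecule JAM-A, averaged 93.7 ± 5.04 CPM in LDHA-KD and 152 ± 15.9 in control tumours given anti-CTLA-4 (-0.70, SE 0.08, edgeR adjusted p = 1.80e-06). Cgn, the adaptor cingulin, averaged 5.86 ± 1.94 CPM in LDHA-KD and 17.3 ± 2.76 in control tumours given anti-CTLA-4 (-1.56, SE 0.18, adjusted p = 3.04e-06). Marveld2, the occludin relative tricellulin, fell by 0.82 on the log2 scale (SE 0.15, adjusted p = 0.000323). Marveld3, another occludin relative, rose with 6.40 ± 1.41 CPM in LDHA-KD and 3.16 ± 0.410 in control tumours (1.02, SE 0.14, adjusted p = 1.38e-05). Tjp3, the scaffold ZO-3, did not pass, at 0.23 (SE 0.18, adjusted p = 0.318).

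Of 11 genes on a list of EPCAM proteolysis and related genes, 5 fell and 2 rose under anti-CTLA-4, and 4 fell and 2 rose under IgG. Over all genes, 19.8% fell and 20.2% rose under anti-CTLA-4, and 17.5% fell and 16.8% rose under IgG. St14, the EPCAM-cleaving protease matriptase, averaged 81.5 ± 8.34 CPM in LDHA-KD and 164 ± 12.5 in control tumours given anti-CTLA-4 (-1.01, SE 0.09, edgeR adjusted p = 1.49e-07). Its inhibitor genes Spint1 and Spint2 fell by 0.35 (adjusted p = 0.00108) and 0.32 (adjusted p = 0.00907) on the log2 scale under anti-CTLA-4. Under IgG Spint1 fell by 0.38 (adjusted p = 0.00118) and Spint2 did not pass (-0.16, adjusted p = 0.223). Without the 4 libraries that stand apart Spint2 did not pass under anti-CTLA-4 either (-0.29, adjusted p = 0.112), and the list had 4 lower and 2 higher.

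Desmosome genes had the lowest median of the 8 junction and regulator lists. Of 9, 7 fell and 0 rose under either antibody, with medians of -1.07 under anti-CTLA-4 and -1.03 under IgG. Over all genes, 19.8% fell and 20.2% rose under anti-CTLA-4, and 17.5% fell and 16.8% rose under IgG. Dsp, the plaque protein desmoplakin, averaged 57.3 ± 13.0 CPM in LDHA-KD and 120 ± 12.9 in control tumours given anti-CTLA-4 (-1.07, SE 0.14, edgeR adjusted p = 8.32e-06). Of 10 adherens junction genes, 5 fell and 1 rose under anti-CTLA-4, and 4 fell and 1 rose under IgG. Cdh1, E-cadherin, averaged 438 ± 34.1 CPM in LDHA-KD and 449 ± 35.5 in control tumours given anti-CTLA-4 and did not pass (-0.03, SE 0.09, adjusted p = 0.789), while Jup, plakoglobin, fell by 1.71 on the log2 scale (adjusted p = 5.36e-08). Of 13 apical polarity genes, 3 fell and 0 rose under anti-CTLA-4, and 3 fell and 1 rose under IgG. These counts are near or under the shares of all genes. Among the polarity genes Crb3 fell by 2.04 (adjusted p = 2.61e-05) under anti-CTLA-4 and Llgl2 did not pass (0.09, adjusted p = 0.653).

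Of 13 tested regulators of epithelial transcription and splicing, 6 fell under anti-CTLA-4 and 5 under IgG, with 0 higher. Over all genes, 19.8% fell and 20.2% rose under anti-CTLA-4, and 17.5% fell and 16.8% rose under IgG. Grhl2, a Grainyhead factor of epithelial junction genes, averaged 19.7 ± 4.71 CPM in LDHA-KD and 33.9 ± 4.10 in control tumours given anti-CTLA-4 (-0.79, SE 0.12, edgeR adjusted p = 6.67e-05). Ovol1 and Ovol2, repressors of mesenchymal genes, fell by 1.49 (adjusted p = 0.000142) and 0.80 (adjusted p = 0.0138) under anti-CTLA-4 and by 1.35 (adjusted p = 0.000692) and 1.31 (adjusted p = 0.000772) under IgG. Elf3 fell by 0.62 under anti-CTLA-4 (adjusted p = 0.00378) and did not pass under IgG (-0.40, adjusted p = 0.0635). Klf4 (0.14) and the splicing factor gene Esrp1 (0.05) did not pass under anti-CTLA-4. Of 7 mesenchymal regulators, 1 fell and 2 rose under anti-CTLA-4, and 4 fell and 1 rose under IgG. Without the 4 libraries that stand apart, 2 of them fell and 1 rose under anti-CTLA-4. Twist1 fell by 0.76 under anti-CTLA-4 (adjusted p = 2.28e-05) and by 0.77 under IgG (adjusted p = 4.06e-05). Twist2 fell by 0.82 under IgG (adjusted p = 0.00245) and did not pass under anti-CTLA-4 (-0.44, adjusted p = 0.0543). Without the 4 libraries that stand apart, Twist2 passed under anti-CTLA-4 too (-0.81, edgeR adjusted p = 0.00784). Zeb2 rose by 0.53 under anti-CTLA-4 (adjusted p = 7.72e-05) and 0.43 under IgG (adjusted p = 0.00117), and Zeb1 by 0.34 under anti-CTLA-4 (adjusted p = 0.0112) but not under IgG (0.05, adjusted p = 0.754). Zeb1 did not pass under anti-CTLA-4 without the 4 libraries that stand apart (0.26, adjusted p = 0.165). Snai1 and Snai2, which like the ZEB factors bind the E-box, fell by 0.40 (adjusted p = 0.0361) and 1.03 (adjusted p = 0.00330) under IgG and did not pass under anti-CTLA-4 (-0.15 and -0.22). Leukocytes and fibroblasts also express Zeb1 and Zeb2.

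**Figure D5:**
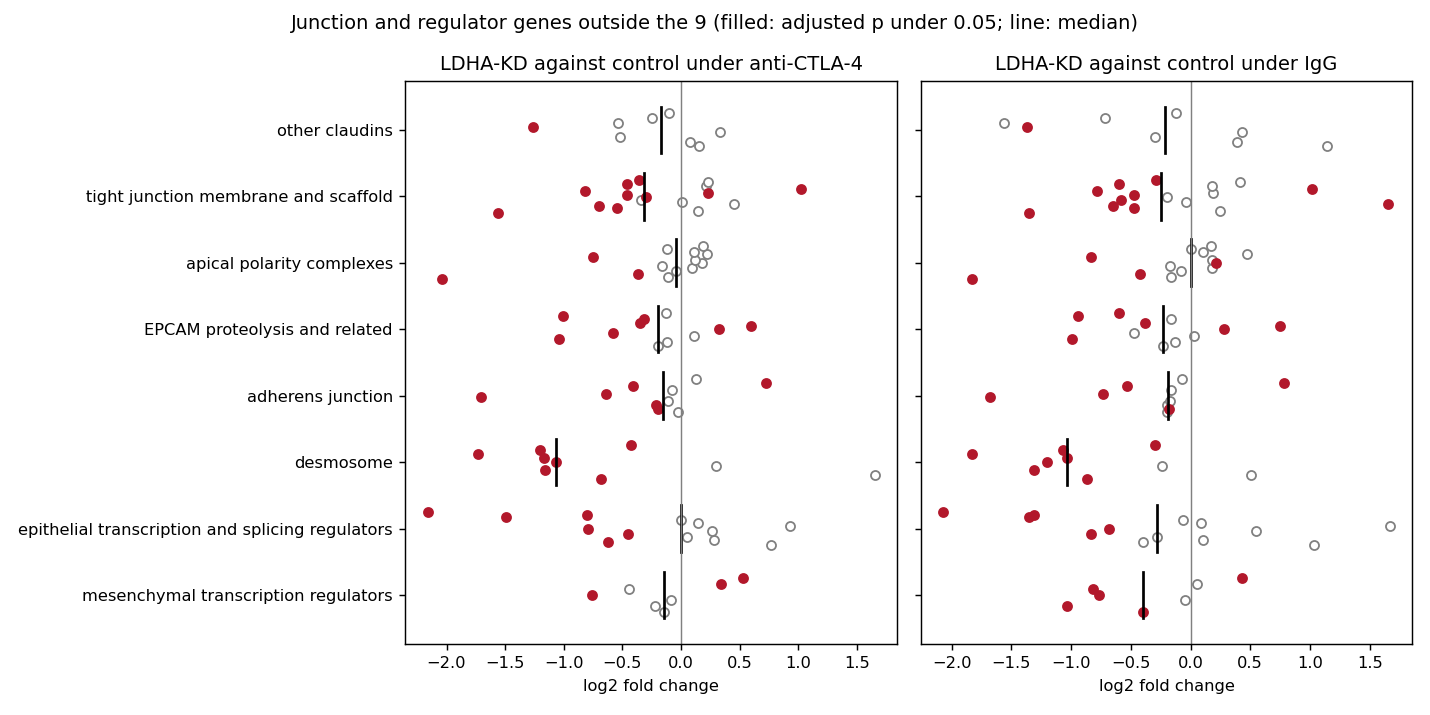
Log2 fold change of LDHA-KD over control tumours (x axis) for each tested gene of the 8 junction and regulator lists (y axis), under anti-CTLA-4 (left) and IgG (right). Filled points have an edgeR adjusted p under 0.05, open points do not, and the line marks each list's median, lowest for the desmosome genes (-1.07 under anti-CTLA-4 and -1.03 under IgG).

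No gene of these lists was called between anti-CTLA-4 and IgG, in LDHA-KD or in control tumours, nor in the interaction, by edgeR. Without the 4 libraries that stand apart, the tight junction list had 9 lower and 1 higher under anti-CTLA-4 (where 4308 genes in all were called in place of 6711), the desmosome list 6 lower and the epithelial regulators 6 lower and 2 higher. The adherens junction list then had 3 lower and 1 higher under anti-CTLA-4.

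Genes whose profile over the 19 tumours was most like that of a member were ranked among the 12542 genes that are not members and whose log2 CPM averaged 1 or more, by the root mean square (RMS) difference of their mean-centred log2 CPM. For Epcam the nearest were Ociad2 (0.250), Mpzl2 (0.251), Otop1 (0.253) and Krt7 (0.260). For Cldn4 they were Otop1 (0.289), Fgfbp1 (0.339), Mpzl2 (0.351) and Ociad2 (0.358), so 3 genes were near both. Epcam and Cldn4 differed from each other by 0.350, so Epcam was nearer to Cldn4 than Mpzl2 and Ociad2 were. For Cldn7 the nearest were Lrig3 (0.171), Slc7a4 (0.180), Dmtn (0.187) and Perm1 (0.198). Since the tumours of a line share their level, such a ranking mostly collects genes with a similar difference between the lines: Mpzl2 had a log2 fold change of -2.29 under anti-CTLA-4 and -2.31 under IgG, and Lrig3 of 1.46 and 1.41.

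The genes beside some members on the chromosome (mm10, GENCODE M21) were measured in the same fit. Cldn7 (chromosome 11, 69964779 to 69967885, plus strand) has Elp5 337 bases away on the minus strand, with a log2 fold change of -0.09 under anti-CTLA-4 (edgeR adjusted p = 0.339) and -0.02 under IgG (adjusted p = 0.858). On its other side Slc2a4, 16.6 kb away, fell by 1.13 on the log2 scale under anti-CTLA-4 (adjusted p = 0.0172) and did not pass under IgG (-0.44, adjusted p = 0.417). Cldn4 (chromosome 5, 134945119 to 134946934, minus strand) has Wbscr27 2.48 kb away, at 0.13 (adjusted p = 0.185) and 0.17 (adjusted p = 0.111). On its other side lies Cldn3 (134986214 to 134987472, plus strand), 39.3 kb away with no annotated gene between them, and their ratio per length was 0.473 ± 0.167 in LDHA-KD and 0.0788 ± 0.0102 in control tumours given anti-CTLA-4. Ocln (chromosome 13, 100496507 to 100552718, minus strand) has Marveld2 43.2 kb away, which fell as given above, and Gtf2h2 3.93 kb away, at 0.02 (adjusted p = 0.910) and 0.06 (adjusted p = 0.760). Epcam (chromosome 17, 87635979 to 87651129, plus strand) has Calm2 189 kb away on its lower-coordinate side, which fell by 0.56 on the log2 scale under anti-CTLA-4 (adjusted p = 0.0208) and did not pass under IgG (-0.50, adjusted p = 0.0514). Neither Slc2a4 (-0.54, adjusted p = 0.192) nor Calm2 (-0.42, adjusted p = 0.0836) passed under anti-CTLA-4 without the 4 libraries that stand apart. Abhd11 beside Cldn3 was lower under both antibodies (-0.49 under anti-CTLA-4 and -0.39 under IgG). So were Il1rap beside Cldn1 (-0.59 and -0.67) and D8Ertd82e beside Cldn23 (-0.81 and -0.98). All passed in edgeR, also under anti-CTLA-4 without those 4 libraries. Mfhas1, also beside Cldn23, passed under IgG (-0.56) and under anti-CTLA-4 only without them (-0.41). P3h2 beside Cldn1 and the genes beside Cldn12 and Tjp1 did not pass under either antibody.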

How the data were processed

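RNA was extracted from 19 tumours, poly(A)-selected and sequenced as stranded libraries, per the labels' protocols. The authors deposited raw read counts per gene, made with HTSeq 0.5.3 on mm10, and Picard 1.124 is also listed, per the submitters' processing notes. Which aligner, annotation release and strand setting were used is not given in the sources used here. Rows that name no gene held 26.2% to 28.7% of the records per library and were left out of library sizes and tests. Depth was 31.8 to 43.3 gene counts in units of 1000000, which gave the members between 19 (Cldn23) and 24057 (Epcam) counts per library.

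The count model was edgeR 4.0.16 (R 4.3.3). Its filterByExpr, given the groups, left 16763 genes, and TMM scaled the libraries. A quasi-likelihood fit of all 19 samples had a coefficient per group, and a gene was called at a Benjamini-Hochberg adjusted p under 0.05 across the table. Fits were first tested on simulated data. No 2 libraries agreed within sampling noise. Transcript lengths and neighbours are from GENCODE M21, promoter windows from RefSeq.

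Members and lists were chosen with earlier results of these data known. Named genes are the 9 members, Ldha, fixed genes by role, claudins past the filter, the 4 nearest profiles of Epcam, Cldn4 and Cldn7, and chromosomal neighbours. Marveld3, Jup, Zeb2, Twist1, Twist2, Cd207 and Cd209a were added after their values were seen. A few genes are not reported here. Alternatives were DESeq2 1.42.0, limma 3.58.1 (voom), other scalings, no filter, fewer samples and the replicate number as a block. Scaling to Krt8 and Krt18, and list and neighbour values without 4 libraries, were added after seeing the data.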

Additional observations from a re-analysis of the deposited data

Results flagged for a closer look

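Tjp1 in replicate 1 of the control tumours with IgG, at 174 CPM, lay apart from the other 3 tumours of its group, the nearest of which had 198 CPM. The gap was 0.870 of the group's range. It came from 36 such checks of a gene in a group, and chance sets apart about 1 in 20.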

How the results depend on the processing

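The log2 fold changes of the members between LDHA-KD and control tumours kept their sign in all but 2 of 504 alternative values: Tjp1 under IgG with the replicate block (-0.0048) and Cldn3 under anti-CTLA-4 scaled to Krt8 and Krt18 (0.0515), and the cause was not tested. Of 720 alternative values in the comparisons of anti-CTLA-4 with IgG and in the interaction, 0 passed the threshold (lowest adjusted p 0.119 in LDHA-KD tumours, 0.163 in control tumours and 0.811 for the interaction). Small differences there changed sign. With the replicate block, Cldn3 and Cldn12 in control tumours were 0.0079 and 0.0066. Without the 4 libraries that stand apart, Cldn3 and Ocln in LDHA-KD tumours were -0.1586 and 0.0405, Epcam in control tumours was 0.011, and the interactions of Cldn3 and Cldn23 were -0.0822 and -0.0136. Leaving out each replicate in turn, the range in LDHA-KD tumours was -0.1372 to 0.4048 for Cldn1, -0.0035 to 0.219 for Cldn3 and -0.0783 to 0.027 for Cldn7. In control tumours it was -0.1716 to 0.0147 for Epcam, -0.1205 to 0.083 for Cldn3, -0.1879 to 0.0098 for Cldn4 and -0.0363 to 0.0353 for Cldn12. For the interaction it was -0.0771 to 0.005 for Cldn12, -0.0635 to 0.2767 for Cldn23, -0.0673 to 0.3088 for Ocln and -0.0662 to 0.0808 for Tjp1. Genes called between LDHA-KD and control tumours under anti-CTLA-4 were 6711, and 4308 without the 4 libraries, with fewer samples. DESeq2 called 50 genes in LDHA-KD and 11 in control tumours between anti-CTLA-4 and IgG, where edgeR called 0 and leaving out replicates gave 0 to 1 and 0. Same-numbered replicates were not treated as pairs: 14 of 27 same-numbered pairs had deviations correlated over 0.1, and 5 of 19 samples correlated best with their own number. The median correlation was 0.116 for same-numbered pairs and -0.042 for pairs with other numbers, so some structure shared by number is not excluded. With the replicate block, 7144 genes were called between LDHA-KD and control tumours under anti-CTLA-4, 5941 under IgG, and 0 in the other comparisons. Depth limits Cldn23 most, at 19 to 190 counts per library.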

Other observations

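The epithelial carcinoma cell markers did not move alike between LDHA-KD and control tumours. Under anti-CTLA-4, 6 of the 8 fell and 0 rose, and under IgG 4 fell and 0 rose. Over all genes, 19.8% fell under anti-CTLA-4 and 17.5% under IgG. Without the 4 libraries that stand apart, 4 fell under anti-CTLA-4, since Krt8 and Krt18 no longer passed. Muc1, a mucin of the apical surface, averaged 15.7 ± 3.23 CPM in LDHA-KD and 80.6 ± 33.6 in control tumours with anti-CTLA-4 (SD, n = 5 each), a log2 fold change of -2.36 (SE 0.30, edgeR adjusted p = 6.38e-06). Krt7, a keratin of simple epithelia, averaged 84.2 ± 28.3 CPM in LDHA-KD and 383 ± 30.5 in control tumours (-2.19, SE 0.20, adjusted p = 1.34e-07). Krt14, a basal keratin, averaged 97.9 ± 53.2 CPM in LDHA-KD and 259 ± 67.5 in control tumours (-1.40, SE 0.28, adjusted p = 0.000657). Trp63, the basal epithelial factor p63, averaged 4.87 ± 1.74 CPM in LDHA-KD and 21.7 ± 5.85 in control tumours (-2.16, SE 0.30, adjusted p = 2.00e-05). Krt5, the partner of Krt14, did not pass, at 21.7 ± 20.1 CPM in LDHA-KD and 7.60 ± 1.34 in control tumours (1.51, SE 0.70, adjusted p = 0.0926), and Krt19 did not pass either (-0.06, SE 0.20, adjusted p = 0.846). These genes were chosen from their lists after their values were seen.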
